A study of Arabidopsis thaliana with 12 samples.

Results

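Transcript levels were compared between heated rosette leaves of atcyp18-2, an Arabidopsis thaliana mutant of the cyclophilin gene AtCYP18-2 (AT2G36130), and heated rosette leaves of wild type (WT). The comparison took 6 of the 12 RNA-seq libraries of the study, chosen by their labels: 3 from atcyp18-2 after heat and 3 from WT after heat. The other 6 libraries, 3 from atcyp18-2 control leaves and 3 from WT control leaves, gave values without heat. They also entered the same fit, so the spread behind every call was estimated from all 12 libraries. All plants were of the ecotype Col-0, 3 weeks old and grown on soil at 23 °C, and the heated ones were held at 47 °C for 1 h. The labels name the mutant without its allele or type of lesion, and do not say whether replicates came from separate plants. All p-values thus reflect the spread among these libraries alone, and that spread may be technical. No label says that the controls were kept at 23 °C for the same hour. Each gene was represented by the annotated transcript with the largest total over all libraries. Of the 23160 genes with such a transcript, 16629 had enough reads to be tested.

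Cyclophilins are peptidyl-prolyl isomerases, enzymes that turn the peptide bond before proline, and several of them in animals, yeast and plants are found with the splicing machinery. Heat at this strength unfolds proteins, and leaf cells answer it through heat shock factors that switch on chaperone genes. Leaf cells also keep a separate programme for low sugar and darkness, in which genes of sugar transport, sugar breakdown and nitrogen salvage are switched on and genes of nitrate use and growth are often switched off.

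The heated libraries held 9075076 to 11704373 reads, of which 2572053 to 4274427 came from nuclear genes, and chloroplast transcripts took 62.0 to 70.2% of reads. In each genotype 1 heated library stood apart from the others of its group, atcyp18-2 replicate 2 and WT replicate 3. In these libraries psbA, the D1 protein of photosystem II, took 26.7% and 26.6% of reads, while in the other heated libraries of both genotypes it took 36.2 to 38.7%. For the called genes and for some of the gene lists, values without these libraries are also given below. In bulk leaf RNA, fewer cells of a type and less RNA per cell cannot be told apart. The bulk of the leaf matched its label, since the summed level of 4 mesophyll genes was 11420.0 to 18113 CPM, that is read counts relative to the library total, in heated atcyp18-2 leaves and 11165 to 19074 CPM in heated WT leaves. The CPM values here are scaled by TMM, a trimmed mean of ratios between libraries, and are not corrected for transcript length, so levels are not compared between genes.

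The mutated gene itself was low in both genotypes and lower in the mutant. AtCYP18-2 had 12, 34 and 17 reads in the heated atcyp18-2 libraries, against 55, 48 and 65 reads in the heated WT libraries. This was 3.03 ± 1.01 CPM in atcyp18-2 and 6.79 ± 1.10 CPM in WT (SD, n = 3 each). No mutant library reached the lowest WT library, yet the log2 fold change of -1.13 ± 0.24 (SE) missed the threshold (edgeR adjusted p = 0.105). Atcyp18-2 replicate 2 was the highest of the mutant libraries, and without it the log2 fold change was -1.43 (edgeR adjusted p = 0.0757). The DESeq2 Wald test called the gene lower on the same libraries (adjusted p = 0.0195). In control leaves the log2 fold change was -2.55 ± 0.25, and it was called (edgeR adjusted p = 0.00348). Of its neighbours on the chromosome that could be tested, DOT1 (AT2G36120) was at 0.97 ± 0.79 (edgeR adjusted p = 0.771) and AT2G36145 at -0.05 ± 0.20 (edgeR adjusted p = 0.977) after heat.

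Heated atcyp18-2 leaves differed from heated WT leaves in few genes by edgeR, and most of these were higher in the mutant. Calls were made with the quasi-likelihood test of edgeR, at p below 0.05 after Benjamini-Hochberg adjustment over all 16629 genes. By this rule 37 genes were called, 0.223% of those tested, with 27 higher (0.162%) and 10 lower (0.0601%) in atcyp18-2. Their absolute log2 fold changes ran over 0.79 to 2.01, and 24 of them changed by at least 2-fold. The genes called higher in the mutant included the hexose importer STP1, the raffinose synthase family gene DIN10, the beta-xylosidases BXL1 and BXL2, the GASA family gene GASA1 and the DnaJ domain gene AT1G72416. Among the genes lower in the mutant were the nitrate reductase NIA1, the phenylpropanoid enzyme PAL1 and the clock factor LHY. In all 37 the heated libraries of the genotypes did not overlap, which was so for 14.9% of all genes tested. At an unadjusted p below 0.05 there were 1753 genes (10.5%). With library totals in place of TMM, which moved the median log2 fold change of all genes to -0.09 from 0.01 with TMM, 2 genes were called higher and 4 lower. The DESeq2 Wald test called 218 genes on the same libraries (1.31%), 140 higher and 78 lower, with 36 of the 37 among them. The size of the set also differed with the libraries in the fit. With only the heated libraries 1 gene was called, which was higher in the mutant. Leaving out atcyp18-2 heat replicate 1, 2 or 3 gave 2, 4 or 5 calls, and leaving out WT heat replicate 1, 2 or 3 gave 2, 5 or 21. Without both libraries that stand apart 6 genes were called (0.0354%), all higher, 4 of them among the 37. These 4 were DIN10, AT1G72416, AT1G66940 and BXL1, and the rest of the 37 then had edgeR adjusted p-values of 0.0692 to 0.168. All 37 kept their direction in each of these fits. They were chosen on these libraries and their groups did not overlap, so little else was possible.

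**Figure D1:**
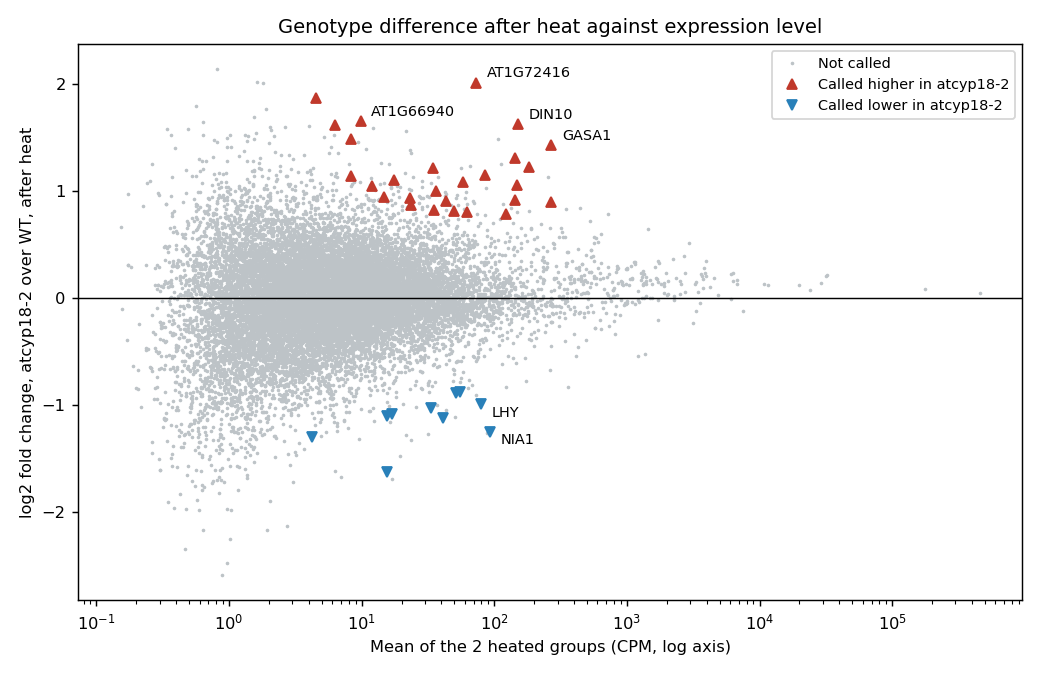
Log2 fold change of heated atcyp18-2 over heated WT leaves (vertical axis) against the mean level of the heated groups in CPM (horizontal log axis) for the 16629 genes tested, 1 point per gene. Triangles mark the 27 genes called higher and the 10 called lower, which lie away from 0 at intermediate levels, with none among the lowest or the highest expressed genes, while most genes scatter about 0.

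DIN10 and AT1G72416 were the genes whose difference held in every fit that left out a library. DIN10 (AT5G20250), a dark-inducible gene of the raffinose synthase family, stood at 249.9, 215 and 223 CPM in heated atcyp18-2 leaves and at 72.7, 66.5 and 84.1 CPM in heated WT leaves. Every mutant library thus lay far above every WT library, at a log2 fold change of 1.62 ± 0.15 (adjusted p = 0.00112 in edgeR). AT1G72416, a protein with the DnaJ domain through which co-chaperones stimulate HSP70, reached 127, 132 and 92.4 CPM in the mutant and 26.1, 31.7 and 29.5 CPM in WT. Its log2 fold change of 2.01 ± 0.20 was the largest of the 37 (edgeR adjusted p = 0.00209). The mutant libraries differed more among themselves here than for DIN10, replicate 3 being the lowest, but none came near the WT libraries. Both genes were also called without the libraries that stand apart, at log2 fold changes of 1.77 (edgeR adjusted p = 0.00397) and 1.93 (edgeR adjusted p = 0.0348). Without heat the values of DIN10 were 27.6 ± 1.76 CPM in atcyp18-2 and 20.01 ± 2.30 CPM in WT (SD, n = 3 each). For AT1G72416 they were 1.26 ± 0.517 CPM in atcyp18-2 and 0.877 ± 0.0884 CPM in WT, so both genes lay well below their heated levels in both genotypes.

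**Figure D2:**
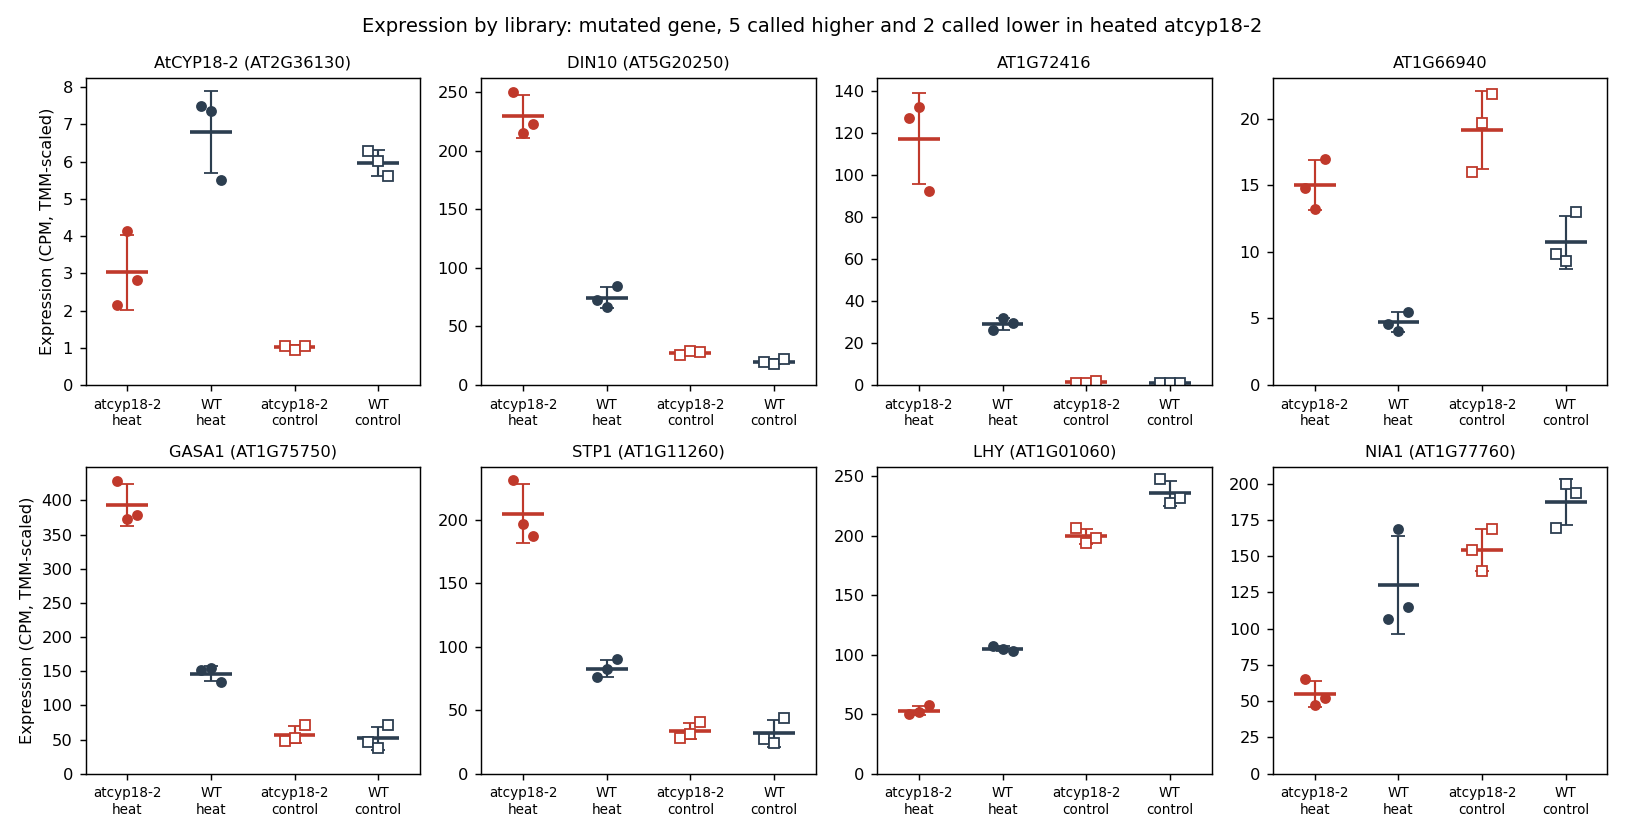
Level in CPM (vertical axes, starting at 0) of the mutated gene, 5 genes called higher and 2 genes called lower in heated atcyp18-2 leaves, by group. Each point is 1 library, lines and bars are the mean ± SD of 3 libraries, and filled points are heated leaves. For the 7 called genes no heated atcyp18-2 point overlaps the heated WT points.

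Among the other genes called higher, STP1 (AT1G11260), a plasma membrane importer of hexoses, had 231, 196 and 187 CPM in heated atcyp18-2 leaves and 76.2, 82.1 and 89.97 CPM in heated WT leaves, a log2 fold change of 1.31 ± 0.22 (adjusted p = 0.0314 in edgeR). The kelch repeat protein gene AT3G59940 had 276, 221 and 274 CPM in the mutant and 100.1, 132 and 97.7 CPM in WT, with 1.23 ± 0.21 (edgeR adjusted p = 0.0378). In both genes the lowest mutant library was well above the highest WT library. The beta-xylosidases BXL2 (AT1G02640) and BXL1 (AT5G49360), which release sugars from cell wall polymers, rose by log2 fold changes of 1.08 ± 0.18 and 1.06 ± 0.19 (edgeR adjusted p = 0.0356 and 0.0379). BXL2 was tight within the mutant, at 76.8, 77.8 and 80.6 CPM, against 29.9, 40.8 and 40.1 CPM in WT. BXL1 was more spread, at 176, 231 and 194 CPM in the mutant and 74.3, 89.02 and 125 CPM in WT, where replicate 3 stood above the others. BXL1 stayed called without the libraries that stand apart (edgeR adjusted p = 0.0348), whereas STP1, AT3G59940 and BXL2 then had edgeR adjusted p = 0.0886, 0.0943 and 0.0943. A pair of related genes for aluminum induced proteins with YGL and LRDR motifs, AT4G27450 and AILP1 (AT5G19140), rose by 1.15 ± 0.19 and 0.92 ± 0.15 (edgeR adjusted p = 0.0314 and 0.0314). UKL3 (AT1G55810), a uridine kinase-like protein of pyrimidine salvage, rose by 0.95 ± 0.15 (edgeR adjusted p = 0.0282).

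Also called higher were a GASA, an ARGOS-like and a SAUR gene, grouped here after they were called. GASA1 (AT1G75750), a small secreted peptide of the gibberellin-regulated GASA family, had 429, 372 and 379 CPM in heated atcyp18-2 leaves and 151, 154 and 134 CPM in heated WT leaves. Its groups were far apart, at a log2 fold change of 1.43 ± 0.22 (adjusted p = 0.0282 in edgeR). ARL (AT2G44080), an ARGOS-like protein that promotes cell expansion, had 8.39, 8.13 and 11.8 CPM in the mutant and 3.34, 3.15 and 2.76 CPM in WT, a log2 fold change of 1.62 ± 0.26 (adjusted p = 0.0314 in edgeR). AT1G56150, of the SAUR family of early auxin-responsive genes, rested on few reads, 55, 47 and 41 in the mutant and 7, 16 and 25 in WT, and its log2 fold change of 1.87 ± 0.34 has the largest SE of the 37 (edgeR adjusted p = 0.0436). SAUR genes lie in a large family of similar sequences, and how the counting split shared reads is not known. None of the 3 was called without the libraries that stand apart, where the log2 fold changes were 1.41, 1.63 and 2.14 (edgeR adjusted p = 0.0934, 0.101 and 0.101).

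Kinase-like, zinc finger and other genes made up the rest of those called higher. AT1G66940, annotated as a kinase-like protein, had 14.8, 13.2 and 16.97 CPM in heated atcyp18-2 leaves and 4.54, 4.05 and 5.52 CPM in heated WT leaves. Its log2 fold change was 1.65 ± 0.21 (edgeR adjusted p = 0.0105), and it stayed called without the libraries that stand apart (1.88, edgeR adjusted p = 0.0348). The RING finger gene AT4G19700 had 11.5, 15.2 and 9.90 CPM in the mutant and 3.88, 3.90 and 5.18 CPM in WT, with 1.49 ± 0.24 (edgeR adjusted p = 0.0306). Proteins of this kind attach ubiquitin to their targets. A second zinc finger gene, AT3G47550, had 24.02, 23.7 and 24.04 CPM in the mutant and 12.03, 11.7 and 9.70 CPM in WT, with 1.11 ± 0.16 (edgeR adjusted p = 0.0237). SERK4 (AT2G13790), a co-receptor kinase of brassinosteroid and immune receptors, rose by 0.87 ± 0.15 (edgeR adjusted p = 0.0361). AtCDC48C (AT5G03340), an AAA ATPase that pulls ubiquitinated proteins out of complexes, rose by 0.81 ± 0.13 (edgeR adjusted p = 0.0314). The other genes called higher were AT5G65480, AT1G30250, AT3G26510, AT3G23080, AT1G03230, AT4G19860, AT5G51970, HGO, APX2 and COL5, with log2 fold changes of 0.79 to 1.21. Of these, AT5G65480, a protein of unknown function, had the smallest p, at 51.2, 48.9 and 43.8 CPM in the mutant and 19.5, 21.8 and 20.8 CPM in WT (log2 fold change 1.21 ± 0.14, edgeR adjusted p = 0.00705). HGO (AT5G54080), homogentisate dioxygenase of tyrosine breakdown, rose by 0.91 ± 0.13 (edgeR adjusted p = 0.0259). COL5 (AT5G57660), a CONSTANS-like B-box protein, had the smallest change of the 37, 0.79 ± 0.14 (edgeR adjusted p = 0.0381).

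The 10 genes called lower in heated atcyp18-2 leaves included single genes of nitrogen use, phenylpropanoid synthesis, the clock, ion channels and DNA maintenance. NIA1 (AT1G77760), a nitrate reductase, had 65.1, 47.3 and 52.3 CPM in the mutant and 107, 169 and 115 CPM in WT, a log2 fold change of -1.24 ± 0.19 (adjusted p = 0.0282 in edgeR). LHY (AT1G01060), a MYB-related factor of the morning phase of the clock, had 49.8, 51.9 and 57.5 CPM in the mutant and 107, 105 and 103 CPM in WT, a log2 fold change of -0.99 ± 0.13 (adjusted p = 0.0105 in edgeR). The libraries of LHY agreed closely within each genotype, whereas WT replicate 2 stood above the other WT libraries for NIA1. PAL1 (AT2G37040), the first enzyme of the phenylpropanoid pathway, had 33.7, 35.7 and 39.3 CPM in the mutant and 76.7, 61.4 and 62.8 CPM in WT, with -0.89 ± 0.16 (edgeR adjusted p = 0.0381). UNE10 (AT4G00050), a bHLH transcription factor, had 10.5, 11.6 and 10.4 CPM in the mutant and 27.7, 19.1 and 21.8 CPM in WT, with -1.08 ± 0.16 (edgeR adjusted p = 0.0259). In both genes each mutant library lay below each WT library. RECQ4A (AT1G10930), a DNA helicase of genome maintenance, had 14, 21 and 13 reads in the mutant and 49, 41 and 60 reads in WT, at a log2 fold change of -1.30 ± 0.19 (adjusted p = 0.0259 in edgeR). CNGC12 (AT2G46450), a cyclic nucleotide-gated channel of defence signalling, was lower in the mutant, at a log2 fold change of -1.10 ± 0.19 (adjusted p = 0.0379 in edgeR). Its neighbour CNGC11 (AT2G46440), a gene of similar sequence with which it may share reads, was at -1.14 ± 0.40 (edgeR adjusted p = 0.301).

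The remaining genes called lower are known mainly by their annotation. AT3G56360, of unknown function, had the largest decrease, with 7.57, 5.78 and 9.43 CPM in heated atcyp18-2 leaves and 29.3, 24.5 and 16.1 CPM in heated WT leaves (log2 fold change -1.62 ± 0.28, edgeR adjusted p = 0.0378). AT1G55960, of the polyketide cyclase and lipid transport superfamily, was at -1.11 ± 0.15 (edgeR adjusted p = 0.0172). AT4G25210, related to the storekeeper DNA-binding proteins, was at -1.03 ± 0.18 (edgeR adjusted p = 0.0378). AT1G29660, a GDSL-like lipase, was at -0.88 ± 0.14 (edgeR adjusted p = 0.0304). None of the 10 genes called lower was called without the libraries that stand apart, where their edgeR adjusted p-values were 0.0756 to 0.119 and their log2 fold changes -0.83 to -1.66.

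The 4 genes with an annotated transcript that the authors' deposited table lists for this comparison are all among the genes called higher here. In the authors' deposited table AT1G72416, AT1G66940, DIN10 and GASA1 have log2 fold changes of 2.01, 1.67, 1.63 and 1.43, with adjusted p-values of 0.000688, 0.00996, 0.000688 and 0.00441. Both sets of values come from the same libraries. For AT1G66940 and DIN10 the authors' values are of transcripts AT1G66940.4 and AT5G20250.4, and those here are of AT1G66940.1 and AT5G20250.1.

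The promoters of the called genes were read from RefSeq (TAIR10.1, 250 bases before the annotated start of the gene) to show the sequences before the genes that were called. The build behind the deposited counts is not named, and genes were matched by identifier. The stretches below are those of DIN10, the gene with the smallest p, of STP1, BXL2 and AT1G66940, which carry the TATCCA element near the start, and of LHY, which carries a G-box. Each is printed 5′ to 3′ on the strand of its gene, with matches to the motifs on either strand in capitals.
DIN10, chr5:6833314-6833563, plus strand: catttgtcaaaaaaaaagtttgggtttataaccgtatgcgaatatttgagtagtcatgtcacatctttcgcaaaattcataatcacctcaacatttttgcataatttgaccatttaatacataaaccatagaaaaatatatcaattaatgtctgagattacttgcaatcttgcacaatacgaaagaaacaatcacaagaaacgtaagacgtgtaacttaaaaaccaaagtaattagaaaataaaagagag
STP1, chr1:3776986-3777235, plus strand: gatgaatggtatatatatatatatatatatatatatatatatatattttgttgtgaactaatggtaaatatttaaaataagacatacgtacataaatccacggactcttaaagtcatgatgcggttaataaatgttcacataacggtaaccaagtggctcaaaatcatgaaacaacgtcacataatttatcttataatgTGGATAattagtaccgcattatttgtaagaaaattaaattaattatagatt
BXL2, chr1:563768-564017, plus strand: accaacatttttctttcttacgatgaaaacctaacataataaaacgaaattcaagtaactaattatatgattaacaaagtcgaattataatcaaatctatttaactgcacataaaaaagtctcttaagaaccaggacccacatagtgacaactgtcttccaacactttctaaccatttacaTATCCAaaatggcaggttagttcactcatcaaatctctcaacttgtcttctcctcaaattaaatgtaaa
AT1G66940, chr1:24974947-24975196, minus strand: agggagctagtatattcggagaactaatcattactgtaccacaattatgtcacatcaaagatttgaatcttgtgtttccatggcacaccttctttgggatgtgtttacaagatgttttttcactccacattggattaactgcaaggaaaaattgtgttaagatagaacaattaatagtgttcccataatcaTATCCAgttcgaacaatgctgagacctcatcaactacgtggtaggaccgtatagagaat
LHY, chr1:37872-38121, minus strand: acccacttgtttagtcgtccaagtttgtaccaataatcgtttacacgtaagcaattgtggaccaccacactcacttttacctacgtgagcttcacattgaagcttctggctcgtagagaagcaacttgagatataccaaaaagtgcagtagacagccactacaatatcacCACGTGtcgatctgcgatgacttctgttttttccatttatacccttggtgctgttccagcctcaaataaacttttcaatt

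In all, 4 motifs were searched on both strands of these promoters. TATCCA, an element known from sugar starvation response in rice, was found in 10 of the 27 promoters of genes called higher (37.0%), in 1 of the 10 of genes called lower, and in 14.4% of the promoters of all 16457 tested genes in RefSeq. In STP1 the capitals read TGGATA, the same element on the other strand, and DIN10 holds no match. The G-box CACGTG, bound by bHLH and bZIP factors, was found in 1 of 27 (3.70%), in 2 of 10 (20.0%) and in 7.53% of all. The evening element AAAATATCT of clock-regulated genes was found in 1 of 27, in none of 10 and in 2.43% of all. The heat shock element was taken as GAANNTTC and TTCNNGAA sharing a unit of 3 bases, and it was found in none of the 37 and in 0.456% of all. No matches of different motifs overlapped in the called genes. These are matches of letters in a window, and no binding was measured.

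Values without heat come from other libraries of the same genotypes, and they show which differences were already present at 23 °C. Of the 27 genes called higher after heat, 19 were also higher without heat, and 8 of these had an unadjusted p below 0.05 there. That level was reached by 2.39% of all genes, in either direction. Over all 16629 genes, 8794 had the same sign in both conditions, and 252 of these had such a p without heat. The spread of each gene was estimated once for both conditions, and calling favours genes with a small spread. These shares over all genes are thus not an even baseline for the genes called after heat. AT3G59940 was called in both conditions, by the same test, with a log2 fold change of 1.54 ± 0.22 without heat (edgeR adjusted p = 0.0371), and it is 1 of 4 genes called without heat (0.0241%). AT1G66940 and DIN10 were at 0.84 ± 0.19 and 0.46 ± 0.15 without heat (edgeR unadjusted p = 0.000600 and 0.00759), and AT4G27450 was at 0.70 ± 0.23 (edgeR unadjusted p = 0.00866). For STP1, BXL2, BXL1 and AT5G65480 the values without heat were 0.07 ± 0.22, -0.02 ± 0.19, -0.03 ± 0.18 and -0.04 ± 0.15. The RING finger gene AT4G19700 pointed the other way without heat, at -0.37 ± 0.26 (edgeR unadjusted p = 0.177). Of the 10 genes called lower, 8 were lower without heat and none had an unadjusted p below 0.05 there. The median log2 fold change of the 27 was 1.08 after heat and 0.19 without heat, and that of the 10 was -1.09 after heat and -0.20 without heat. These genes were chosen on the heated libraries, so nothing is read from their larger values there. A test of the difference between the effects of the genotype with and without heat called 0 genes in edgeR, with a lowest adjusted p of 0.298, and 910 genes (5.47%) had an unadjusted p below 0.05.

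**Figure D3:**
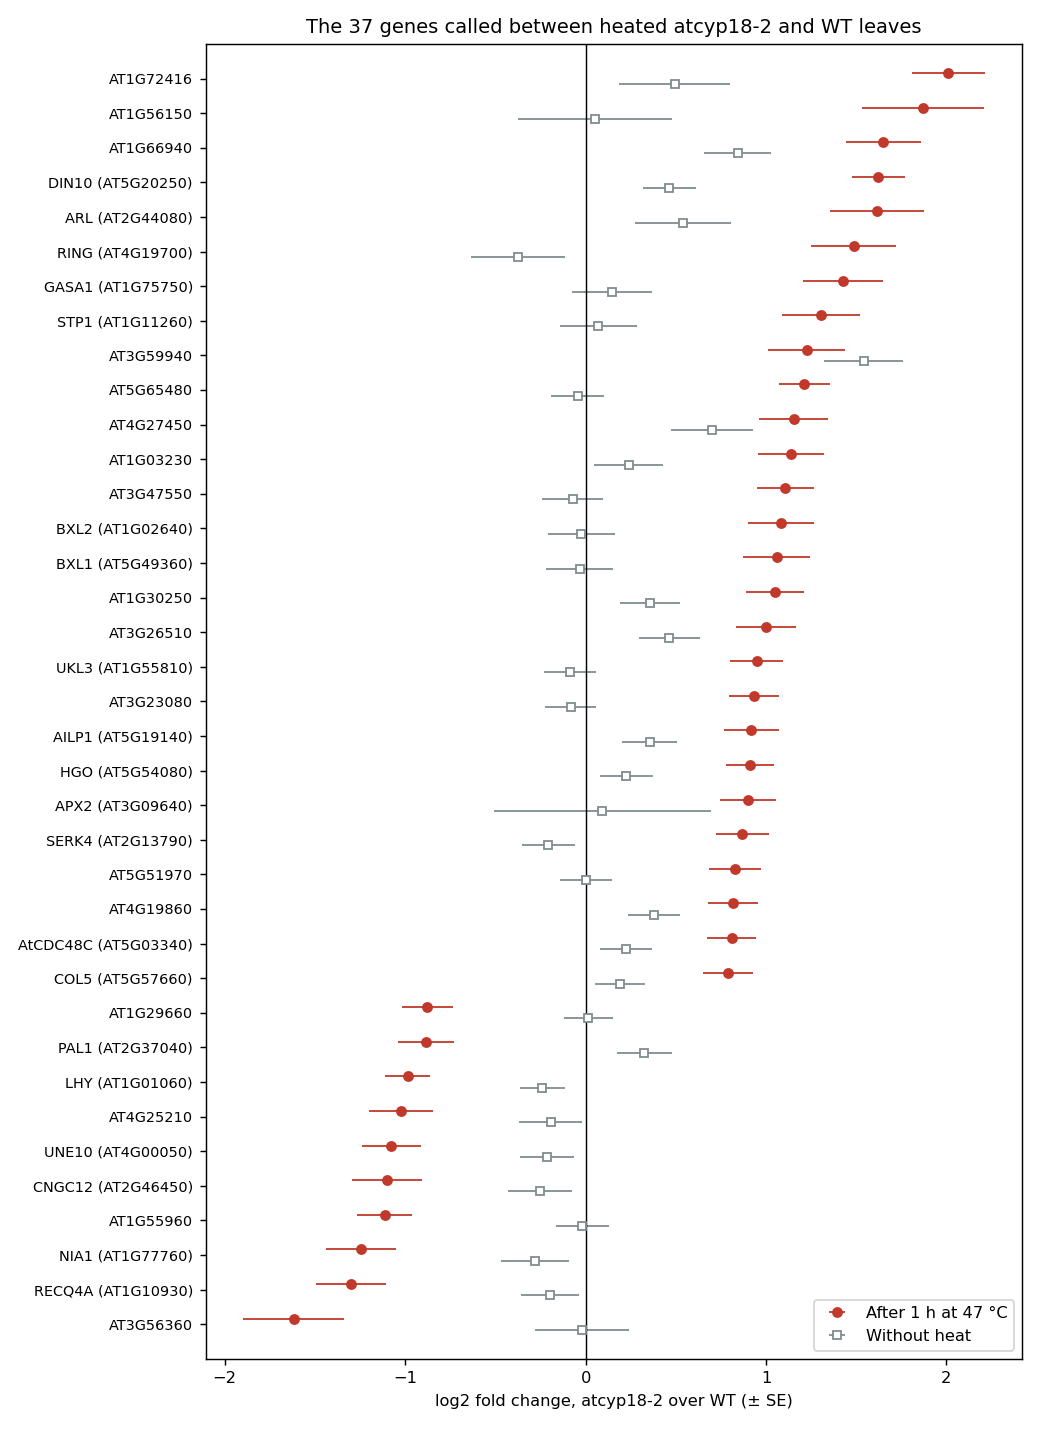
Log2 fold change of atcyp18-2 over WT (horizontal axis, ± SE) for the 37 called genes, after 1 h at 47 °C (filled circles) and without heat (open squares), ordered by the value after heat. AT3G59940 is the gene whose value without heat is the larger one, and most open squares lie near 0.

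No chaperone of the heat shock lists was called between the genotypes by edgeR. For the list counts here and below, the shares over all genes tested in edgeR were 0.223% called and 10.5% at an unadjusted p below 0.05. None of the 17 small heat shock proteins tested, which hold unfolding proteins, was called by DESeq2 either, which called 1.31% of all genes. Of these, 16 were on the positive side and 4 had an unadjusted p below 0.05, and the median log2 fold change was 0.25, or 0.06 without the libraries that stand apart. HSP23.6-MITO (AT4G25200), the small chaperone of mitochondria, had 2273, 1902 and 1652 CPM in heated atcyp18-2 leaves and 2079, 2107 and 1435 CPM in heated WT leaves. These ranges overlap, and the log2 fold change of 0.05 ± 0.18 has a 95% interval of -0.34 to 0.45 and turned below 0 with library totals. AT5G37670 had the largest value of the list, 1.25 ± 0.41 (edgeR adjusted p = 0.274), with 119.8, 267 and 87.5 CPM in the mutant and 37.6, 55.1 and 106 CPM in WT, which overlap, and AT4G21870 was at 0.80 ± 0.29 (edgeR adjusted p = 0.324). Of 23 HSP70, HSP90, HSP100 and HSP60 chaperones none was called by either tool, 4 had an unadjusted p below 0.05, and the median was 0.03 (-0.04 with library totals and -0.11 without the libraries that stand apart). HSP70 (AT3G12580) had 6616, 6962 and 6509.8 CPM in the mutant and 6092, 6585 and 5301 CPM in WT, with a 95% interval of the log2 fold change of -0.24 to 0.56. HSA32 (AT4G21320), a protein of lasting heat tolerance, was at 0.66 ± 0.23 (edgeR adjusted p = 0.308) and the mitochondrial HSP70 MTHSC70-2 (AT5G09590) at -0.54 ± 0.19 (edgeR adjusted p = 0.306).

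Heat shock factors and protein folding in the endoplasmic reticulum gave no call by edgeR either. Of 19 heat shock factors and heat regulators 7 had an unadjusted p below 0.05, and DESeq2 called 1 of them higher. Their median was 0.07, or -0.06 with library totals and 0.17 without the libraries that stand apart. HSFA2 (AT2G26150), the heat-induced factor that sustains the response, had 669.9, 725 and 593 CPM in heated atcyp18-2 leaves and 813, 824 and 747 CPM in heated WT leaves, so that every mutant library was below every WT library. Its log2 fold change of -0.26 ± 0.18 was not called (edgeR adjusted p = 0.702). HSFA1E (AT3G02990) and HSFB2A (AT5G62020) were at 0.88 ± 0.30 and 0.87 ± 0.23 (edgeR adjusted p = 0.292 and 0.163). Of 17 genes of folding in the endoplasmic reticulum 10 were on the negative side, 4 had an unadjusted p below 0.05, and DESeq2 called 1 lower. The lumenal chaperones BIP2 (AT5G42020) and BIP1 (AT5G28540) were at -0.83 ± 0.21 and -0.39 ± 0.21 (edgeR adjusted p = 0.146 and 0.558), and calnexin CNX1 (AT5G61790) was at -0.61 ± 0.17 (edgeR adjusted p = 0.187). BIP1 and BIP2 are near-identical in sequence and their split is uncertain.

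Splicing factors and other cyclophilins, the groups closest to the mutated protein, were not called by edgeR. Of 19 SR proteins, which select splice sites, 16 were on the positive side with a median of 0.20 (0.10 with library totals), 3 had an unadjusted p below 0.05, and DESeq2 called 1 higher. SR30 (AT1G09140) had 253, 209.6 and 233 CPM in heated atcyp18-2 leaves and 153, 175 and 114 CPM in heated WT leaves. The groups did not overlap, but the log2 fold change of 0.66 ± 0.18 missed the threshold (edgeR adjusted p = 0.175). SC35 (AT5G64200) and SR45a (AT1G07350) were at 0.62 ± 0.23 and 0.46 ± 0.17 (edgeR adjusted p = 0.336 and 0.319). Of 14 other spliceosome genes none had an unadjusted p below 0.05, and CDC5 (AT1G09770), AT4G03120 and AT5G64270 were at 0.43 ± 0.27, 0.41 ± 0.26 and 0.14 ± 0.27. Of 27 other cyclophilins 3 had an unadjusted p below 0.05 and none was called by DESeq2, with a median of 0.06 (-0.10 with library totals and 0.09 without the libraries that stand apart). SQN (AT2G15790), the cyclophilin that works with HSP90 and small RNA pathways, had 8.23, 6.48 and 6.44 CPM in the mutant and 4.41, 4.50 and 3.51 CPM in WT, without overlap and not called (edgeR adjusted p = 0.241). AT2G47320 was at 0.68 ± 0.21 (edgeR adjusted p = 0.241), and the chloroplast cyclophilin ROC4 (AT3G62030) at -0.13 ± 0.14 with a 95% interval of -0.43 to 0.18. Splicing itself was not analysed here.

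**Figure D4:**
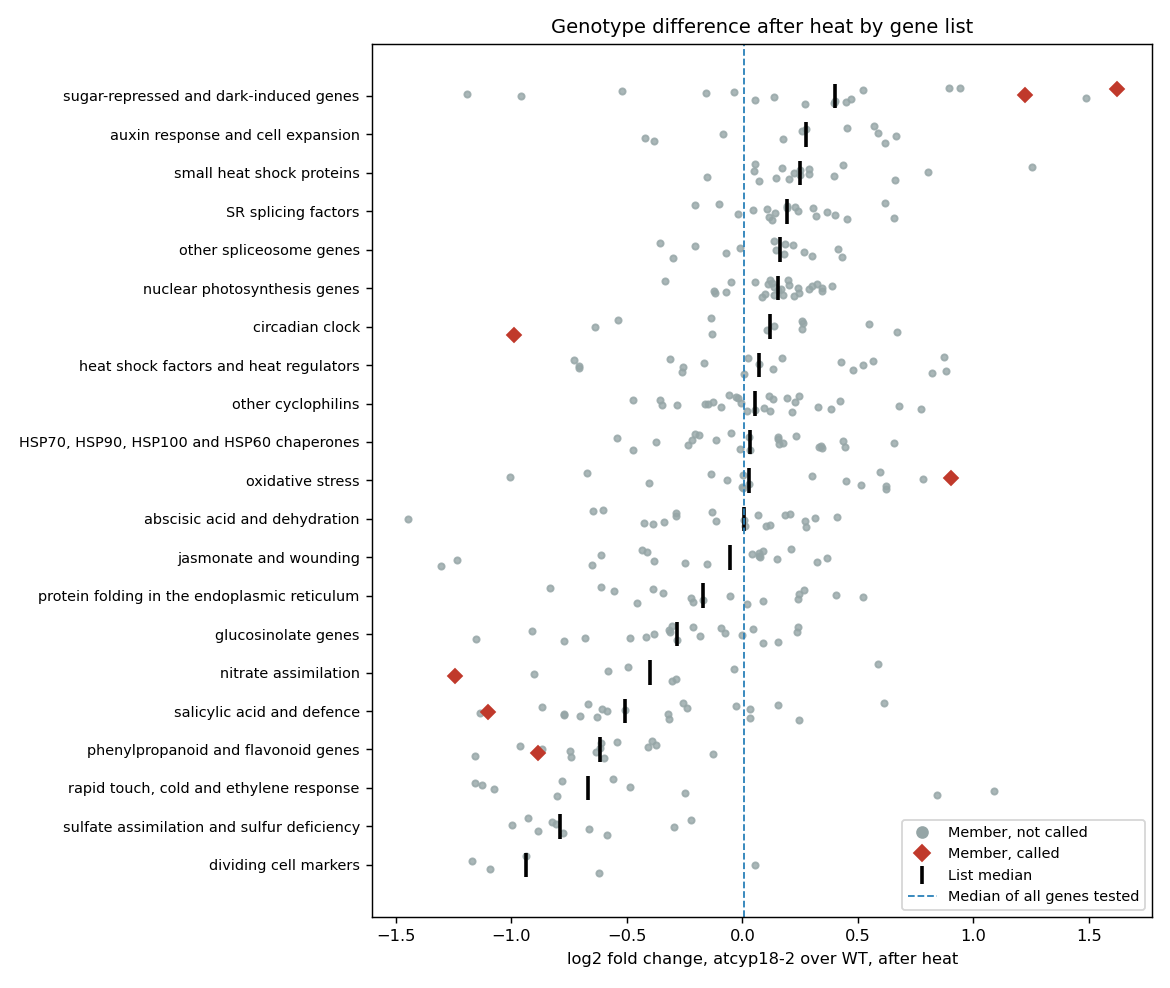
Log2 fold change of heated atcyp18-2 over heated WT leaves (horizontal axis) for the tested members of 21 gene lists, 1 point per gene, ordered by list median (black bars). Diamonds mark members called by edgeR, and the dashed line is the median of all genes tested, 0.01. The highest list median is 0.40, for sugar-repressed and dark-induced genes, and the lowest is -0.93, for the 5 dividing cell markers.

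Sugar-repressed and dark-induced genes held 2 of the 27 genes called higher, DIN10 and AT3G59940, out of 18 tested, and no gene called lower. Over all genes tested, 0.162% were called higher. Of the 18, 13 were on the positive side and the median was 0.40, against 0.01 over all genes. Without the libraries that stand apart the list median was 0.49, and 1 member was called. DESeq2 called 4 of them higher, against 1.31% of all genes called. An unadjusted p below 0.05 in edgeR was found for 8, against 10.5% of all genes. ASN1 (AT3G47340), an asparagine synthase that stores nitrogen in the dark, had 217, 121 and 135 CPM in heated atcyp18-2 leaves and 36.9, 44.3 and 87.04 CPM in heated WT leaves. The groups did not overlap but were widely spread, and the log2 fold change of 1.49 ± 0.36 was not called (edgeR adjusted p = 0.136). On the negative side were 5 of the 18, the lowest at a log2 fold change of -1.19. Members picked after their values were seen, from the positive side alone, were not called and changed by less than the one at -1.19. These were bZIP1 (AT5G49450), a factor of the low-energy response, at 0.90 ± 0.20 (edgeR adjusted p = 0.109), AKINBETA1 (AT5G21170), a subunit of the energy-sensing SnRK1 kinase, at 0.94 ± 0.27 (edgeR adjusted p = 0.207), and the SnRK1 kinase KIN10 (AT3G01090) at 0.47 ± 0.16 (edgeR adjusted p = 0.303). TPS11 (AT2G18700), of the trehalose phosphate synthase family, was at 235, 166 and 213 CPM in the mutant and 191, 221 and 179.8 CPM in WT, with a log2 fold change of 0.05 ± 0.19 that turned below 0 with library totals. Without heat the list had a median of 0.34 with 15 of 18 on the positive side, and 2 called. Some of these members were larger there, as TPS8 (AT1G70290, chosen after its values were seen) at 1.88 ± 0.26 without heat and 0.40 ± 0.24 after heat.

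Nitrate assimilation, which turns nitrate into amino acids, had NIA1 called lower among 8 tested members, and 7 of the 8 had log2 fold changes below 0. NIA1 lost its call without the libraries that stand apart. Nitrite reductase NIR1 (AT2G15620), the next enzyme, had 61.4, 36.1 and 54.98 CPM in heated atcyp18-2 leaves and 96.5, 113 and 74.8 CPM in heated WT leaves. Its mutant libraries all lay below the WT libraries, at a log2 fold change of -0.90 ± 0.22 that edgeR did not call (adjusted p = 0.141). DESeq2 called 2 of the 8 lower. GS2 (AT5G35630), the chloroplast glutamine synthetase, had 634, 640.1 and 662 CPM in the mutant and 664, 653 and 667 CPM in WT, with a 95% interval of -0.32 to 0.25. The list median was -0.40 after heat and 0.11 without heat.

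All 15 tested genes of phenylpropanoid and flavonoid synthesis lay on the negative side after heat, with a median of -0.62 (-0.46 without the libraries that stand apart), but PAL1 was the only one called by edgeR. DESeq2 called 3 of them lower, and 7 had an unadjusted p below 0.05. FLS1 (AT5G08640), flavonol synthase, had 4.61, 4.95 and 6.91 CPM in heated atcyp18-2 leaves and 10.6, 10.96 and 10.5 CPM in heated WT leaves. It missed the threshold at a log2 fold change of -0.96 ± 0.19 (adjusted p = 0.0777 in edgeR), as did PAL2 (AT3G53260, chosen after its values were seen) at -0.74 ± 0.14 (edgeR adjusted p = 0.0582). 4CL3 (AT1G65060), a coumarate ligase of flavonoid synthesis, was at -1.16 ± 0.48 with overlapping groups (edgeR adjusted p = 0.392), and C4H (AT2G30490), the enzyme after PAL, at -0.12 ± 0.12 with a 95% interval of -0.39 to 0.14. Without heat the list had a median of 0.17, with 11 of 15 on the positive side. No member passed the test of the difference between conditions (lowest edgeR adjusted p = 0.363, 7 with an unadjusted p below 0.05).

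Sulfate assimilation and sulfur deficiency genes lay on opposite sides with and without heat, and no member was called by edgeR in either condition. After heat all 10 tested members were on the negative side, with a median of -0.79 and 4 with an unadjusted p below 0.05, and DESeq2 called 1 lower. Without heat all 10 were on the positive side, with a median of 0.95 and 7 with an unadjusted p below 0.05. APR1 (AT4G04610), an APS reductase of the committed step of sulfate reduction, had 26.98, 19.7 and 27.3 CPM in heated atcyp18-2 leaves and 56.8, 48.3 and 42.5 CPM in heated WT leaves. In control leaves it had 39.2, 31.9 and 51.6 CPM in atcyp18-2 and 19.9, 27.2 and 19.4 CPM in WT. The mutant libraries were thus all below WT after heat and all above WT without heat, at log2 fold changes of -0.998 ± 0.22 (edgeR adjusted p = 0.105) and 0.88 ± 0.21 (edgeR adjusted p = 0.603). The difference between these values, -1.88 ± 0.30, had the lowest adjusted p of that test over all genes, 0.298 in edgeR, and was not called. APR2 (AT1G62180) had 146, 84.4 and 156 CPM in heated atcyp18-2 leaves and 269, 226 and 166 CPM in heated WT leaves, a log2 fold change of -0.77 ± 0.23 (adjusted p = 0.222 in edgeR), and was at 0.26 ± 0.23 without heat. ATSDI1 (AT5G48850), a sulfur deficiency-induced protein, was at -0.93 ± 0.43 after heat and 1.29 ± 0.47 without heat (edgeR adjusted p = 0.477 after heat). Both comparisons have their own libraries, and the direction held without the libraries that stand apart, at a median of -0.81.

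The other lists held 3 more called genes, LHY, CNGC12 and APX2. In the clock list LHY was called lower among 12 tested, while its close relative CCA1 (AT2G46830) was at 0.26 ± 0.29 with overlapping groups (edgeR adjusted p = 0.857) and turned below 0 without atcyp18-2 heat replicate 2. ELF3 (AT2G25930), of the evening complex, was at 0.67 ± 0.18 (edgeR adjusted p = 0.166). APX2 (AT3G09640), a cytosolic ascorbate peroxidase induced by heat, had 403, 332 and 308 CPM in heated atcyp18-2 leaves and 176, 221 and 162 CPM in heated WT leaves. It was the 1 gene called of 17 in the oxidative stress list, at 0.90 ± 0.16 (edgeR adjusted p = 0.0378), and its groups did not overlap. CAT2 (AT4G35090), the leaf catalase, was at 0.00 ± 0.17 with a 95% interval of -0.37 to 0.37, and AGC2-1 (AT3G25250), a kinase of oxidative signalling, had at most 7 reads in any heated library. Of 21 salicylic acid and defence genes CNGC12 was called, 16 were on the negative side and the median was -0.51, with 2 at an unadjusted p below 0.05.

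Hormone, glucosinolate and growth lists gave no call by edgeR. Of 21 glucosinolate genes 16 were on the negative side with a median of -0.28, 2 had an unadjusted p below 0.05, and DESeq2 called 1 lower. FMO GS-OX1 (AT1G65860), which oxidises glucosinolate side chains, was at -1.15 ± 0.29 (edgeR adjusted p = 0.146), CYP79B2 (AT4G39950), of indole glucosinolate synthesis, at -0.91 ± 0.43 (edgeR adjusted p = 0.483), and IIL1 (AT4G13430), of side chain elongation, at -0.07 ± 0.13. Of 18 jasmonate genes 1 had an unadjusted p below 0.05 and the median was -0.05, with LOX4 (AT1G72520) at -1.24 ± 0.46, JAZ5 (AT1G17380) at -1.31 ± 0.95 and LOX2 (AT3G45140) at -0.61 ± 0.53. Of 21 abscisic acid and dehydration genes none had an unadjusted p below 0.05, the median was 0.01 (-0.12 with library totals and -0.03 without the libraries that stand apart), and GolS1 (AT2G47180), LTI30 (AT3G50970) and HAI1 (AT5G59220) were at 0.27 ± 0.54, -1.45 ± 0.77 and -0.65 ± 0.33. Of 10 rapid touch, cold and ethylene genes 8 were on the negative side with a median of -0.67 (-0.43 without the libraries that stand apart), none had an unadjusted p below 0.05, and TCH3 (AT2G41100), ERF5 (AT5G47230) and AT5G51190 were at 0.84 ± 0.51, -1.13 ± 0.58 and -1.16 ± 0.55. In the last 3 lists DESeq2 called none. Of 11 auxin and cell expansion genes 5 had an unadjusted p below 0.05 and DESeq2 called none, with a median of 0.27, and EXPA4 (AT2G39700), PIF3 (AT1G09530) and XTH4 (AT2G06850) were at 0.66 ± 0.30, 0.62 ± 0.22 and 0.18 ± 0.16. Of 27 nuclear photosynthesis genes 22 were on the positive side with a median of 0.15, and none had an unadjusted p below 0.05 or was called by DESeq2. LHCA4 (AT3G47470) and LHCA3 (AT1G61520), antenna proteins of photosystem I, were at 0.39 ± 0.22 and 0.35 ± 0.21, and CAB1 (AT1G29930), of photosystem II, at -0.12 ± 0.32, which turned above 0 without atcyp18-2 heat replicate 2 or WT heat replicate 1.

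Markers of other cell types were measured beside these results. The 2 phloem markers summed to 49.98 to 73.8 CPM in heated atcyp18-2 leaves and 39.05 to 54.5 CPM in heated WT leaves, which overlap, and neither SUC2 (AT1G22710, 0.43 ± 0.31) nor APL (AT1G79430, 0.14 ± 0.29) was called. The 5 dividing cell markers summed to 7.90 to 9.87 CPM in atcyp18-2 and 10.7 to 14.6 CPM in WT, without overlap. Of these markers 4 had log2 fold changes below 0, and 1 was at 0.05. SYP111 (AT1G08560), the syntaxin of the dividing cell plate, was at -0.62 ± 0.21 (edgeR adjusted p = 0.287), and the cyclins CYCA1;1 (AT1G44110) and CYCB1;1 (AT4G37490) were at -1.09 ± 0.47 and -1.17 ± 0.58 with at most 15 and 9 reads in any heated library. Summed guard cell markers were at 6.28 to 6.42 CPM in atcyp18-2 and 5.70 to 6.52 CPM in WT, with FMA (AT3G24140), MYB60 (AT1G08810) and HT1 (AT1G62400) at -0.10 ± 0.28, -0.30 ± 0.59 and 0.67 ± 0.64. Senescing leaf markers were at 1.26 to 4.61 CPM in atcyp18-2 and 5.48 to 7.86 CPM in WT, also without overlap, with SAG13 (AT2G29350) at -0.97 ± 0.60 (edgeR adjusted p = 0.640). Of these 2 markers SAG13 alone was tested, with 6 to 89 reads in the heated libraries. Over all genes tested, 14.9% did not overlap between the heated groups. The root markers were at 10.4 to 17.3 CPM in atcyp18-2 and 9.76 to 21.6 CPM in WT, mostly from PYK10 (AT3G09260, -0.13 ± 0.35). Flower markers reached at most 0.494 CPM in atcyp18-2 and 0.600 CPM in WT. None of the 3 seed markers had an annotated transcript among the deposited counts. The 4 mesophyll markers overlapped between the genotypes, 2 with log2 fold changes above 0 and 2 below. LHCB2.1 (AT2G05100) was at 0.29 ± 0.27, RCA (AT2G39730) at 0.14 ± 0.18 and CAB1 (AT1G29930) at -0.12 ± 0.32. The part of the dividing cell and senescing leaf markers in the differences above was not tested.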

How the data were processed

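Raw counts per transcript were taken from the authors' deposited series table, per the file headers. Per the submitters' processing notes, HTSeq and DESeq were used, with no version or role stated. Which aligner and which build were used is not given in the sources used here. A file header names Phytozome for the annotation. The lowest value in every library was 1 and no row stood at 1 in all of them, so each deposited count carries 1 added read. It was kept in the tests and in CPM values and subtracted from the read numbers printed. The table has 51792 rows, and 8624 are assembled transcripts, which were left out. Its 12 columns of the authors' normalized values were not used. Counts per gene had been assumed in the design, and 1 transcript per gene took their place. Counting is not stated to use strand, so overlapping and antisense genes cannot be told apart. The authors' deposited log2 fold changes and adjusted p-values for the same comparison were used for 4 genes.

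All 12 libraries entered 1 fit in edgeR 4.0.16 (R 4.3.3) with TMM scaling, filterByExpr by group and a coefficient per group, with 8 residual degrees of freedom and a common biological coefficient of variation of 0.231. Genes were called by the quasi-likelihood test at a Benjamini-Hochberg adjusted p below 0.05 over all 16629 genes. The SE of a log2 fold change is its size over the root of the test's F. The fit was tested on simulated data. DESeq2 1.42.0 was an alternative, beside other scalings, filters, transcripts and sets of libraries. The genes named in each list are the tested member with the highest CPM and the 2 with the largest absolute log2 fold change. Of the called genes the 15 higher and 15 lower with the largest change at a mean of at least 1 CPM were to be named, and the others were named after their values were seen. The comparison, gene lists, motifs and the libraries that stand apart were chosen with earlier results of these data known. Within the heated groups, chi-square per degree of freedom between libraries was 2.69 to 51.8, so none agree within sampling noise. Same-numbered heated libraries did not deviate together (r = 0.314, -0.413 and -0.441), so the numbers were not used as pairs. RefSeq TAIR10.1 matched 22951 of 23160 genes by identifier and gave their symbols, and it gave promoters for 16457 of the tested genes.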

Additional observations from a re-analysis of the deposited data

How the results depend on the processing

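All 37 called genes kept their direction in each of the 19 other fits, but few kept their call. Nothing is read from the kept direction, since these genes were chosen on the same libraries and their groups did not overlap. DIN10 and AT1G72416 were called in 17 of the 19 fits, and these 2 alone in all 6 that left out a library. Against 37 calls (27 higher, 10 lower), leaving out 1 heated library gave 2 to 21 calls, with 2 to 11 higher and 0 to 10 lower. These fits hold fewer samples, as does the one without both libraries that stand apart, which called 6, all higher, with 0 lower. Library totals called 6 (2 and 4), no filter on low counts 24 (13 and 11), and at least 1 CPM in 3 heated libraries 44 (28 and 16). DESeq2 called 218 (140 and 78), 36 of the 37 among them. Heated libraries alone called 1 (1 and 0), and an adjusted p below 0.01 with a 2-fold change left 3 (3 and 0). Beside the fewer samples or the stricter rule, the cause of these shifts was not tested. RLE factors, nuclear genes only and the lowest-numbered transcript gave 37 calls each, and subtracting the added read 36. The sign of the library score as a term, added after seeing the data and derived from the same residuals so that its p-values are too small, called 1240 (726 and 514). With replicate number as a block, 3 genes were called in all libraries (3 and 0) and 0 in the heated ones (0 and 0). With the block, edgeR found 797 genes at an unadjusted p below 0.05 in the heated libraries, and the numbers do not pair the samples.

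Among genes not called, log2 fold changes near 0 changed sign. Leaving out 1 heated library, CAB1 (AT1G29930) ran over -0.35 to 0.093, APL (AT1G79430) over -0.31 to 0.40, TPS11 (AT2G18700) over -0.063 to 0.18, CCA1 (AT2G46830) over -0.053 to 0.53, PYK10 (AT3G09260) over -0.38 to 0.29, HSP23.6-MITO (AT4G25200) over -0.11 to 0.15, CAT2 (AT4G35090) over -0.11 to 0.089 and AT5G64270 over -0.042 to 0.31. Without both libraries that stand apart APL gave -0.13, PYK10 0.045 and HSP23.6-MITO -0.092. With library totals TPS11 gave -0.061, HSP23.6-MITO -0.0082 and CAT2 -0.096. CAT2 also gave -0.011 with nuclear genes only, -0.031 with no filter, -0.017 at 1 CPM, -0.015 with heated libraries only, and -0.019 and -0.0053 with the replicate block in heated and in all libraries.

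With 48 to 65 reads in heated WT libraries and 12 to 34 in heated atcyp18-2 libraries, the level of AtCYP18-2 is known only roughly, and the 3 libraries per genotype limit all calls. No interval here covers more than the spread between these libraries.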

Other observations

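The 37 called genes lay on all 5 nuclear chromosomes. Chromosome 1 held 14 of them (37.8%), 9 higher and 5 lower, and 26.1% of the genes tested, while chromosome 2, which carries AtCYP18-2, held 4 (10.8%, against 15.2% of the genes tested). Of the 8 called genes on chromosome 5 none was lower in heated atcyp18-2 leaves.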
